A study of Arabidopsis thaliana with 9 samples.

Results

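The stamens of Arabidopsis thaliana were compared with its gynoecium, the organ that holds the ovules, over the 3 stamen libraries and the 3 gynoecium libraries, chosen by the male and female titles of their samples. They make up 6 of the 9 RNA-seq libraries of the series; the other 3 are of leaf and entered the fit through its filter, scaling and shared spread, not the comparison. All plants were of the accession Col-0, the stage is labelled flower bud differentiation, and no mutation, transgene or treatment is given for either group. RNA was drawn with Trizol from immature buds, per the labels, and the number of plants or pooled organs behind a library is not given in the sources used here, so the p-values measure only the spread between these libraries. The series describes its aim as profiling male and female gametophytes, but both labelled tissues are whole organs, so sporophytic tissue and gametophytes were measured together. In such bulk tissue, fewer cells of a type and less RNA per cell cannot be told apart.

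A stamen carries an anther, in which the tapetum, a secretory cell layer, feeds the developing pollen and is then lost by programmed cell death. A gynoecium at the bud stage is a growing organ of dividing cells, with carpel walls, transmitting tissue and ovules, each of which will hold an embryo sac. Pollen stores transcripts, proteins and membrane for the fast growth of the pollen tube, while ovule and carpel growth rest on repeated cell division.

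The 6 libraries held 16916596 to 18756860 counted reads. Values below are CPM (each gene's count as a share of its library's effective size), with TMM factors that were 0.955 to 0.966 in stamens and 1.27 to 1.28 in gynoecia. Of 20827 genes tested, 9645 were higher in stamens (46.3%) and 8128 were lower (39.0%) at an adjusted p under 0.05 in edgeR's quasi-likelihood test, so 85.3% of genes were called. The CPM ranges of the groups did not overlap for 85.1% of the tested genes. A stricter test, against a change of 2-fold, called 5401 genes higher in stamens (25.9%) and 3140 lower (15.1%), and counts of gene groups below use it unless they say otherwise. Scaling to library totals alone moved the median log2 change of all genes by -0.37 and upper quartile scaling by -0.11, so small increases can change direction with the scaling. With library totals the first test gave 7243 higher and 10962 lower, and the 2-fold test gave 4605 higher and 4878 lower. A named gene is called higher or lower only at an adjusted p under 0.05; among them the largest was 0.017, for SEC15B.

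Markers of both organs stood on the side of their label. PI, a MADS-box factor that specifies petals and stamens, had 787, 742 and 796 CPM in stamens and 7.0, 7.90 and 8.34 CPM in gynoecia. INO, a factor of the outer integument of ovules, had 0.290, 0.412 and 0.801 CPM in stamens and 83.3, 88.4 and 81.4 CPM in gynoecia. STK, which sets ovule identity, was 296-fold lower in stamens and MS1, a tapetum factor, was at least 294-fold higher. Of markers of other cells, the nectary sugar transporter SWEET9 was at 0 in all 6 libraries, the xylem factor VND7 had 4, 3 and 1 counts in stamens and none in gynoecia, and AP1 of sepals and petals was below 1 CPM on average in both organs. The xylem cellulose synthase IRX3 (79.0 ± 4.44 CPM in stamens against 3.58 ± 0.580 in gynoecia) and the guard cell channel KAT1 (54.2 ± 2.59 CPM in stamens against 2.09 ± 0.665 in gynoecia) were higher in stamens, and the epidermal genes ATML1 (66.4 ± 1.30 CPM in stamens against 193 ± 2.65 in gynoecia) and PDF1 were higher in gynoecia. The other guard cell markers did not follow KAT1: FMA, also called FAMA, was 1.75-fold lower and MYB60 did not pass (0.138 ± 0.0873 CPM in stamens against 0.334 ± 0.103 in gynoecia, adjusted p = 0.058). Their part in the results below was not tested.

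Many genes were at exactly 0 in every library of one organ. Among the 13967 genes with a mean of over 100 counts per stamen library, 876 had no count in any gynoecium library, while 29 had 1 count, 17 had 2 and 9 had 3 counts summed over those libraries. In the other direction, 79 of 13653 genes had no stamen count, and 13 had 1 to 3. AT3G01270, the gene of highest stamen level with no gynoecium count, had 42703, 43100 and 39754 counts in stamens. AT3G28780, a neighbour of the DUF1216 genes described next, had 33691, 34681 and 32037 counts in stamens and none in gynoecia, although those neighbours had a few CPM there. The values 0, 1, 2 and 3 thus do not form a smooth tail, and what produced the zeros in the deposited table was not tested. Of the genes past the 2-fold test, 2134 of 5401 higher and 334 of 3140 lower had no count in the other organ. A fold against such a group is given throughout as a lower bound from 3 counts per library, which holds only if the zeros are true counts. Among the 18094 tested genes with counts in both organs, 3267 were higher (18.1%) and 2806 lower (15.5%), and gene groups are given on this basis too where it moves them. A gene at 0 in 1 of the 2 floral organs could pass the filter on low counts only through the other one or through leaf. Through leaf, 219 genes with no count in any of the 6 libraries were tested. So nothing is read from shares of the tested members alone.

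**Figure D1:**
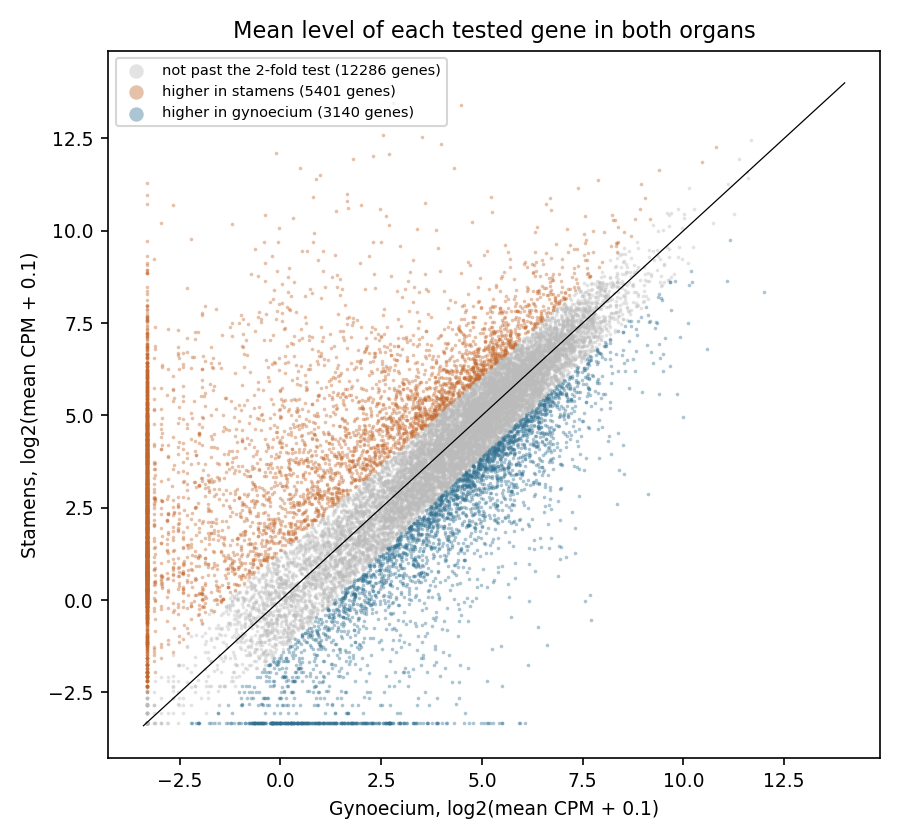
Mean level of each tested gene in gynoecium (horizontal axis) and stamens (vertical axis), as log2 of mean CPM plus 0.1, each point 1 gene, coloured by the test against a 2-fold change. The columns of points at the left and bottom edges are genes with no count in 1 organ, and the 5401 genes higher in stamens spread much farther from the diagonal than the 3140 higher in gynoecium.

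Genes past the 2-fold test in stamens' favour took 40.4% of stamen counts and 7.42% of gynoecium counts, while those in the gynoecium's favour took 20.08% of gynoecium counts and 4.07% of stamen counts. At 64-fold or more, 2393 genes were higher in stamens and 366 lower. By length-scaled abundance (FPKM), the leading stamen transcripts were ATA20 and AT3G28830, a mucin-like DUF1216 gene. ATA20, an anther glycine-rich protein gene, had 10571, 10783 and 10809.6 CPM in stamens and 23.0, 21.5 and 22.6 CPM in gynoecia. AT3G28830 had 10904, 11494 and 11250.1 CPM in stamens and 7.17, 6.63 and 6.70 CPM in gynoecia, a log2 change of 10.68 ± 0.05 (SE; adjusted p = 4.39e-80). Its neighbour AT3G28790, of the same domain, had 6178, 6199.8 and 6169 CPM in stamens and 5.75, 5.63 and 5.75 CPM in gynoecia. The groups did not overlap for any of these genes, and the stamen libraries differed little among themselves.

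The other leading stamen genes were GRP17, an oleosin-like protein of the pollen coat (5883 ± 156 CPM in stamens against 11.2 ± 0.254 in gynoecia), the beta-glucosidase gene ATA27 (5179 ± 77.7 CPM in stamens against 15.7 ± 0.953 in gynoecia), XTH3 of the xyloglucan-remodelling enzymes (3290.0 ± 23.6 CPM in stamens against 1.30 ± 0.269 in gynoecia), and AT3G07850 of the pectin lyase-like family (4186 ± 52.1 CPM in stamens against 4.84 ± 0.528 in gynoecia). RD19, a cysteine protease gene, was the exception in size: it was abundant in both organs, at 4876 ± 81.3 CPM in stamens against 1804 ± 8.88 in gynoecia, and 2.70-fold higher.

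Of 7 motifs searched in the 250 bases before each gene's start, on both strands, the MEF2-type CArG box, known as a site of MIKC*-type MADS-box factors of pollen, was in 1.95% of the promoters of tested genes. It was in 3.75% of those higher in stamens, 5.13% (120 of 2337) of those higher by 64-fold or more and 1.37% of those lower. The 2 promoters shown, of both DUF1216 genes, were picked from the genes of highest FPKM in stamens because they hold the box. Their windows also had to be free of other genes. Each holds 1 box, in capitals, so its presence there is not a result. The AT3G28830 window is chr3:10830912-10831161 (plus strand) and the AT3G28790 window is chr3:10815700-10815949 (minus strand), on TAIR10.1, read 5′ to 3′ towards the gene. Motifs and promoters were picked after the values were seen, and a match is a description of letters only.
AT3G28830: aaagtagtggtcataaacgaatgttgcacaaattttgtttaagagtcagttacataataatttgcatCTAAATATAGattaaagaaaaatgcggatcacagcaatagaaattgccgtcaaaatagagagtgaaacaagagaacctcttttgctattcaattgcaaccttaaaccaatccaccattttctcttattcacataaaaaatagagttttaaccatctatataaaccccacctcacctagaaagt
AT3G28790: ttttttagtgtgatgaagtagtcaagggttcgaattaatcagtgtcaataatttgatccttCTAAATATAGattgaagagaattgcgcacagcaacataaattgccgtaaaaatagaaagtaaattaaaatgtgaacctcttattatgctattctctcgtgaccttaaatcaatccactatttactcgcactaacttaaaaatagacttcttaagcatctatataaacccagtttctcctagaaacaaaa

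The gynoecium's leading transcripts differed less between the organs. XTH9, another xyloglucan-remodelling enzyme gene, had 328, 320.2 and 328 CPM in stamens and 4085, 4249 and 3987 CPM in gynoecia, and was 12.6-fold lower in stamens. PDF1, a protodermal factor gene of the epidermis, had 117, 109.9 and 109 CPM in stamens and 1545, 1564 and 1495 CPM in gynoecia. AT2G28790, of the thaumatin-like pathogenesis-related family, had 45.1, 45.9 and 53.2 CPM in stamens and 925, 937 and 883 CPM in gynoecia. None of the ranges overlapped, yet every leading gynoecium gene had over 40 CPM in each stamen library. Smaller differences among them were those of the aquaporin gene PIP3 (2.65-fold lower in stamens), the beta-glucosidase gene BGLU18 (5.44-fold lower), LP1, a lipid transfer protein gene (7.06-fold lower), and the ribosomal protein genes AT2G41840 (2.41-fold lower) and AT2G01250 (2.08-fold lower).

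**Figure D2:**
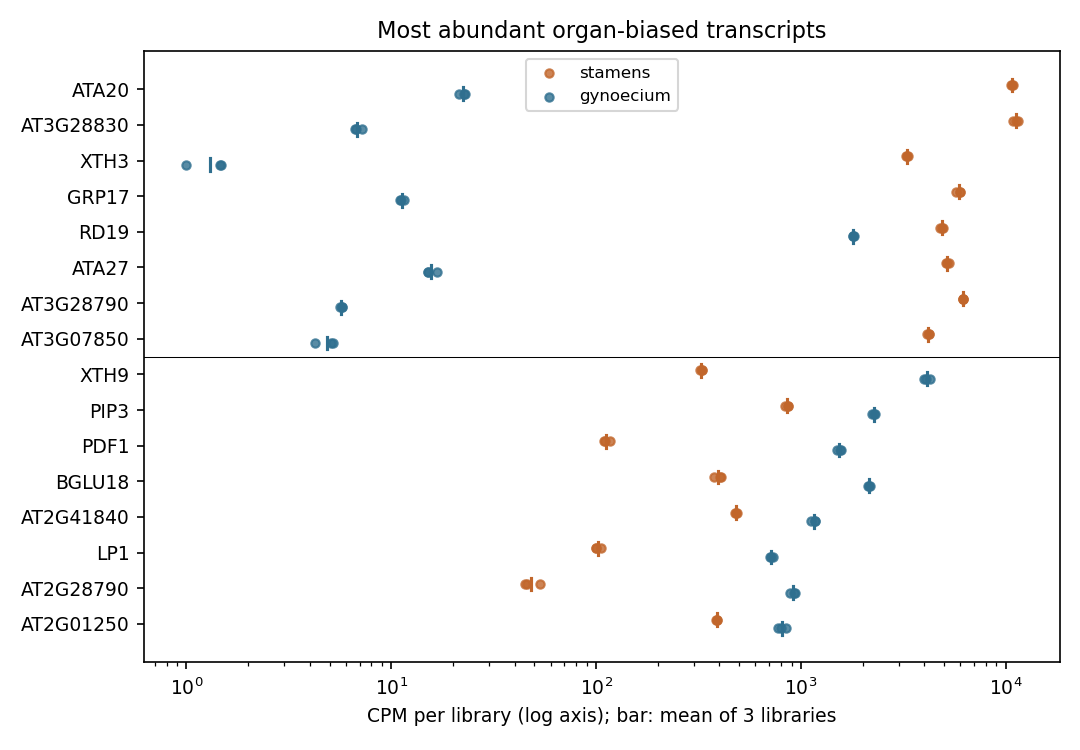
CPM per library (log axis) of the 8 most abundant genes by FPKM past the 2-fold test in each organ's favour; points are libraries and bars the mean of 3. Among stamen-led genes RD19 differs by 2.70-fold and ATA27 by 330.4-fold, while gynoecium-led genes differ by 2.08-fold to 19.03-fold.

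Core histone genes were mostly lower in stamens. Of 42 tested, 26 were lower and 4 higher, beside 15.1% and 25.9% of all genes tested, with a median log2 change of -1.46 beside 0.09 for all of them. All 5 tested genes of the replication-type histone H3.1, which is laid down during DNA synthesis, were lower. AT5G10390 (HTR13) had 4.29, 3.71 and 4.44 CPM in stamens and 38.9, 47.0 and 40.5 CPM in gynoecia, and AT5G65360 (HTR1) had 5.56, 4.48 and 5.92 CPM in stamens and 40.0, 43.3 and 42.0 CPM in gynoecia. The others were 7.04-fold lower (AT5G10400, HTR9), 6.40-fold lower (AT1G09200, HTR2) and 4.05-fold lower (AT3G27360, HTR3, 39% of whose exon bases lie in another gene model). These genes are nearly identical copies, so how the reads were split among them is uncertain. The replacement H3.3 genes moved less: HTR4 (AT4G40030) was 2.29-fold lower, HTR5 (AT4G40040) 1.91-fold lower and HTR8 (AT5G10980) 1.56-fold lower, and the last 2 did not pass the 2-fold test. The centromeric variant HTR12 was 3.33-fold lower and HTR11 16.8-fold lower.

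The exception was MGH3, also known as HTR10, the H3 variant of the male germline. It had 11.1, 10.8 and 8.20 CPM in stamens and no count in any gynoecium library. If those zeros are true counts, it was at least 77.0-fold higher in stamens. Outside H3, HTA6 (AT5G59870), an H2A gene, had 17.55, 15.4 and 15.4 CPM in stamens and 102, 111 and 102 CPM in gynoecia, and the histone gene AT5G59690 had 17.2 ± 2.80 CPM in stamens against 99.3 ± 5.05 in gynoecia. The histone octamer CGCGGATC was in 0.148% of promoters of tested genes and 21.4% (9 of 42) of the core histones. The promoters of AT5G65360 (histone H3) and HTA13 (histone H2A, 7.71-fold lower in stamens) are shown with the octamer in capitals, from chr5:26120582-26120831 (minus strand) and chr3:7229140-7229389 (plus strand), on TAIR10.1.
AT5G65360: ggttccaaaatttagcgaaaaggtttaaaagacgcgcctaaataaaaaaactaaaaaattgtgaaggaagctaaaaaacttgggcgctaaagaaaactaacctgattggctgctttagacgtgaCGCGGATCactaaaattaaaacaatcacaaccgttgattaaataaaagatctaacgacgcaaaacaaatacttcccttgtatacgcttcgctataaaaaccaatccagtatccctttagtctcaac
HTA13: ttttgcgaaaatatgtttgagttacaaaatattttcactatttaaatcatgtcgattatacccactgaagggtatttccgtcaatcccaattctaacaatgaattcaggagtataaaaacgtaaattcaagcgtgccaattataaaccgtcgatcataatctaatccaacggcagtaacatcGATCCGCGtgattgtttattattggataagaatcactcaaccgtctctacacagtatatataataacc

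Genes of mitosis were mostly lower in stamens too. Of 27 spindle and cytokinesis genes, 17 were lower in stamens by the 2-fold test (63.0%) and none higher, beside 15.1% and 25.9% of all genes tested. By the first test it was 22 and 3, and the median log2 change was -1.71. POK2, a kinesin that guides the division plane, had 5.91, 5.30 and 5.43 CPM in stamens and 72.5, 70.9 and 69.4 CPM in gynoecia. HIK, the cytokinetic kinesin HINKEL, had 4.52, 4.89 and 4.50 CPM in stamens and 46.5, 47.1 and 47.9 CPM in gynoecia. POK1, the partner of POK2, had 2.66, 3.48 and 3.14 CPM in stamens and 31.2, 32.3 and 30.9 CPM in gynoecia. Stamens were far below gynoecia in every library, and the ranges did not overlap. Among all kinesins, 12 of 28 were lower (42.9%) and 3 higher (10.7%). AT4G26660 was 13.8-fold lower and AT5G55520 5.39-fold lower.

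The list held exceptions. TES, the kinesin of male meiotic cytokinesis, did not pass the test (51.2 ± 2.05 CPM in stamens against 54.8 ± 1.18 in gynoecia, adjusted p = 0.092). MAP65-4, a microtubule bundler, was 1.27-fold higher; SCC3, a cohesin subunit, 1.20-fold higher; and KEU, a partner of the cytokinetic syntaxin, 1.13-fold higher, all by the first test. With library totals the log2 changes of these 3 were -0.07, -0.15 and -0.24, so their direction rests on the scaling. The core of the MSA element, AACGG, was in 21.8% of promoters of tested genes and 44.4% (12 of 27) of this list. It is short and frequent; the promoters of HIK and of the checkpoint gene MAD2, which was 8.58-fold lower in stamens, are shown with it in capitals, from chr1:6324379-6324628 (minus strand) and chr3:9502806-9503055 (plus strand), on TAIR10.1.
HIK: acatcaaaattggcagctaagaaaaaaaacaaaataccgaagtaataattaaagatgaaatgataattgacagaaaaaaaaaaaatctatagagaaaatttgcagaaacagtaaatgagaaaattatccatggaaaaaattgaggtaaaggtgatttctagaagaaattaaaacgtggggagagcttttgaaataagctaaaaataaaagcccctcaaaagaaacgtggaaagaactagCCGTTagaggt
MAD2: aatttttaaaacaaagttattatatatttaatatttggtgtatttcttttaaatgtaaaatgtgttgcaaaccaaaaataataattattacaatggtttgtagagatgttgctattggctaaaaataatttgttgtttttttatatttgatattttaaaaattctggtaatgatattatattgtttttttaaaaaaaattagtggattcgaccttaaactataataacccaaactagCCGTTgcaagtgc

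Transcripts of most ribosomal proteins were lower in stamens, by about 2-fold at the median. Of 290 ribosomal protein genes, 242 were lower and 25 higher by the first test, beside 39.0% and 46.3% of all genes tested, and 95 and 15 by the 2-fold test, with a median log2 change of -0.98. This family was picked after its values were seen. Scaled to library totals, 263 were lower and 17 higher by the first test. Of 16 nucleolus and ribosome assembly genes, 15 were lower and 1 higher by the first test. By the 2-fold test 3 were lower (18.75%, near the 15.1% of all genes tested) and 1 higher, and the median log2 change was -0.60. Of the list's largest decreases, among members with at least 5 CPM in gynoecia, FIB1, a fibrillarin that methylates ribosomal RNA, was 2.65-fold lower. NOP56 of the same particle was 2.13-fold lower and EDA25 (AT1G72440), listed as SWA2, 2.41-fold lower. The near copy FIB2 was 1.14-fold lower, by an amount smaller than the scaling shift.

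A few paralogs ran the other way. NUC-L2, a nucleolin gene, had 29.7, 33.1 and 32.6 CPM in stamens and no count in any gynoecium library, whereas its paralog NUC-L1 had 721, 777 and 746 CPM in stamens and 1188, 1192 and 1214 CPM in gynoecia and was 1.60-fold lower in stamens. In the S19 family of small-subunit proteins, AT5G09500 had 189, 174 and 182 CPM in stamens and 1.76, 1.63 and 0.951 CPM in gynoecia. Its neighbour AT5G09510 had 5.10, 4.18 and 4.44 CPM in stamens and 15.8, 15.7 and 22.1 CPM in gynoecia. AT5G63070 was 55.0-fold higher, and AT5G43640 was higher at a low level (1.36 ± 0.430 CPM in stamens against no count in gynoecia), while RPS15 was 2.11-fold lower. Similar copies share sequence, so how the authors' counting split their reads is uncertain. AT5G40040, an acidic stalk protein gene, was 22.4-fold higher. These paralogs were picked after their values were seen.

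Site II (TGGGCC or TGGGCT), an element of TCP factors, was in 57.2% of ribosomal protein promoters and 22.1% of all tested, and the telobox (AAACCCTA) in 14.5% and 4.17%. AT2G37600, a large-subunit gene with 3.11 ± 0.901 CPM in stamens against 12.2 ± 3.60 in gynoecia, held both, and is shown from chr2:15775375-15775624 (minus strand) on TAIR10.1, with matches on either strand in capitals.
AT2G37600: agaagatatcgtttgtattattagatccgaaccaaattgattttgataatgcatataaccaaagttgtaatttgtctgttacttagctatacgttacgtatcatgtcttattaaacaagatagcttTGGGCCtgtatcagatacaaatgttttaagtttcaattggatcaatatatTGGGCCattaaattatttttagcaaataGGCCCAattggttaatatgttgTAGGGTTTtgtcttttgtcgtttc

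F-box proteins, the substrate-binding parts of SCF ubiquitin ligases, were the largest of the families counted here with most tested members on the stamen side. Of 653 members, 452 had a count and 338 were tested; 203 were higher in stamens and 23 lower. Of those 203, 164 had no gynoecium count at all. Among the 168 members with counts in both organs, 39 were higher (23.2%, beside 18.1% of all such genes) and 17 lower, with a median log2 change of 0.21. The family's large share therefore rests on members listed at 0 in the gynoecium. DAF1 was the most abundant by FPKM and had 240.2, 246 and 242 CPM in stamens and 0.965, 0.999 and 1.08 CPM in gynoecia. CPR1 had 116, 118 and 111 CPM in stamens and 53.6, 54.7 and 55.9 CPM in gynoecia, and was 2.1-fold higher. SKP1, the adaptor these proteins bind, had 329.7 ± 15.1 CPM in stamens against 282 ± 14 in gynoecia, and its direction rests on the scaling: its log2 change was 0.23, and -0.18 with library totals.

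The telobox was in 29.6% (60 of 203) of the promoters of F-box genes higher in stamens, 6 of 112 of those not past the 2-fold test and 0 of 23 of those lower. It was also in 67 of 315 F-box genes that were not tested, that is, in members with few or no reads here. The promoters of FOA1 (22.7 ± 1.96 CPM in stamens against no count in gynoecia) and AT1G26515 (19.8 ± 1.20 CPM in stamens against no count in gynoecia) are shown with the box in capitals, from chr3:5916657-5916906 (minus strand) and chr1:9162911-9163160 (minus strand), on TAIR10.1.
FOA1: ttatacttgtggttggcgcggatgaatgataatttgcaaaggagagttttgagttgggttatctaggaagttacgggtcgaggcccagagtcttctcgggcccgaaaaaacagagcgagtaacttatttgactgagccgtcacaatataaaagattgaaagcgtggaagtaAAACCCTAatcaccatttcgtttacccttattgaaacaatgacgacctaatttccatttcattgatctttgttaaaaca
AT1G26515: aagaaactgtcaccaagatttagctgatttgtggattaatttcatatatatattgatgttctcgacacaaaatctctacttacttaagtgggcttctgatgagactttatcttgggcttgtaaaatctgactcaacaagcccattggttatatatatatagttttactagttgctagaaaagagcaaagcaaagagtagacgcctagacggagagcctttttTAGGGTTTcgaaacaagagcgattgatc

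**Figure D3:**
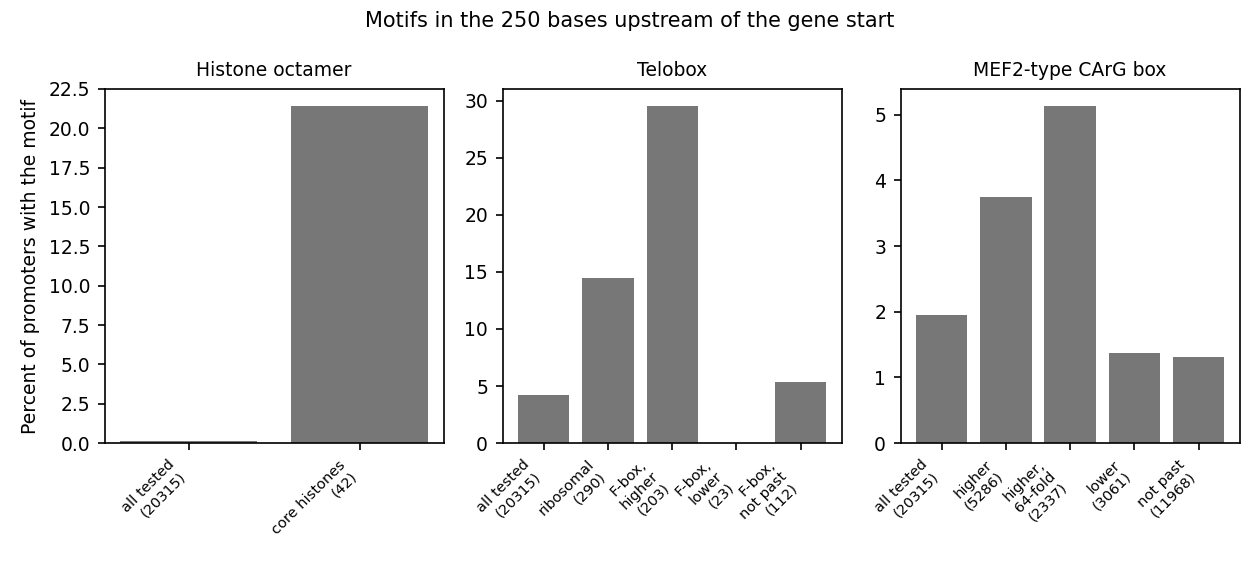
Percent of promoters (250 bases upstream of the gene start) holding the histone octamer, telobox or MEF2-type CArG box, by gene group, with the number of genes in parentheses. The octamer is in 21.4% of core histone promoters, and the telobox in 29.6% of F-box genes higher in stamens and in none of the 23 lower.

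Secreted and wall proteins were next. For reference, 25.9% of all genes tested were higher in stamens and 15.1% lower, or 18.1% and 15.5% with counts in both organs. Of 220 defensin-like and cysteine-rich peptide genes, which encode small secreted proteins, 32 were tested, 23 were higher in stamens and 3 lower; with counts in both organs it was 9 and 3 of 13. LCR66 had 138, 124 and 141 CPM in stamens and 0.168, 0.182 and 0.0432 CPM in gynoecia, and LCR5 31.5, 25.6 and 30.9 CPM in stamens and no count in any gynoecium library. Of 67 homologs of the self-incompatibility S1 protein, a family picked after its values were seen, only 7 passed the filter, and all 7 were higher with no gynoecium count. With no gynoecium count, those 7 could pass the filter only through stamen or leaf counts. They could not come out lower in stamens, so nothing is read from their direction. Of 48 peroxidases, 32 were higher and 12 lower. Of the 23 with counts in both organs, 13 were higher (56.5%) and 8 lower (34.8%), so both shares were above those of all such genes. AT1G44970 was 9.02-fold higher and AT4G37520 65.3-fold higher.

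Pectin methylesterases and their inhibitors, which set the stiffness of pectin walls, split. Of 72 tested, 41 were higher and 15 lower, beside 25.9% and 15.1% of all genes tested. Of the 42 with counts in both organs, 14 were higher (33.3%) and 12 lower (28.6%), beside 18.1% and 15.5% of all such genes. The median log2 change of those 42 was -0.28. VGD1, the pollen tube pectin methylesterase, had 4219.8, 4441 and 4220.0 CPM in stamens and 5.79, 6.72 and 6.49 CPM in gynoecia, and its neighbour AT2G47050 had 652, 636 and 644 CPM in stamens and 2.35, 2.41 and 2.55 CPM in gynoecia. Copies of these genes are similar, so the split of reads is uncertain. Of 20 tested S-locus lectin kinases, 12 were higher and 0 lower (14 and 2 by the first test), and 5 of those 12 had no gynoecium count. Of the 13 with counts in both organs, 7 passed the 2-fold test on the stamen side (53.8%, beside 18.1% of all such genes). The family was led by AT1G11410 (3.62-fold higher) and AT5G35370 (6.87-fold higher). In the gynoecium's favour, 14 of 30 beta-1,3-glucanase genes, whose enzymes cut callose, were lower in stamens and 6 higher, beside 15.1% and 25.9% of all genes tested. With counts in both organs it was 14 and 4 of 26. Those lower included AT2G05790 (179.9 ± 5.95 CPM in stamens against 651 ± 7.45 in gynoecia) and AT5G58090 (2.31-fold lower).

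The transcription factor families named here, picked for their large shares, fell on opposite sides. For reference, 25.9% of all genes tested were higher in stamens and 15.1% lower. Of those with counts in both organs it was 18.1% and 15.5%. Some others leaned to neither side among members with counts in both organs, where 10 of 38 MADS-box factors were higher and 10 lower. For MYB factors it was 18 and 18 of 86, and for WRKY factors 7 and 8 of 42. Of all tested members, 25 of 55 MADS-box factors were higher and 12 lower. On that basis it was 44 and 21 of 120 MYB factors and 10 and 12 of 52 WRKY factors. Of 69 tested NAC factors, 36 were higher in stamens (52.2%) and 8 lower (11.6%). Of the 48 with counts in both organs, 20 were higher (41.7%) and 4 lower (8.33%). NAC025 had 410.1, 375 and 382 CPM in stamens and 1.05, 0.726 and 1.69 CPM in gynoecia, and NAC047 had 108, 113 and 105 CPM in stamens and no count in any gynoecium library. Of 54 B3 domain factors, 32 were lower (59.3%) and 6 higher (11.1%). Of the 43 with counts in both organs, 26 were lower (60.5%) and 1 higher (2.33%). AT2G35310 had 13.5, 16.1 and 16.6 CPM in stamens and 299, 289 and 293 CPM in gynoecia, and AT3G06160 was 4.51-fold lower. GATA factors (14 of 32 lower, 5 higher, or 14 and 4 of 31 with counts in both organs) included AT4G16141 (6.42-fold lower) and GATA5 (3.22-fold lower). Dof factors (8 of 19 lower, 3 higher, or 8 and 2 of 18 with counts in both organs) included DOF6 (11.7-fold lower) and DAG2 (10.3-fold lower).

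**Figure D4:**
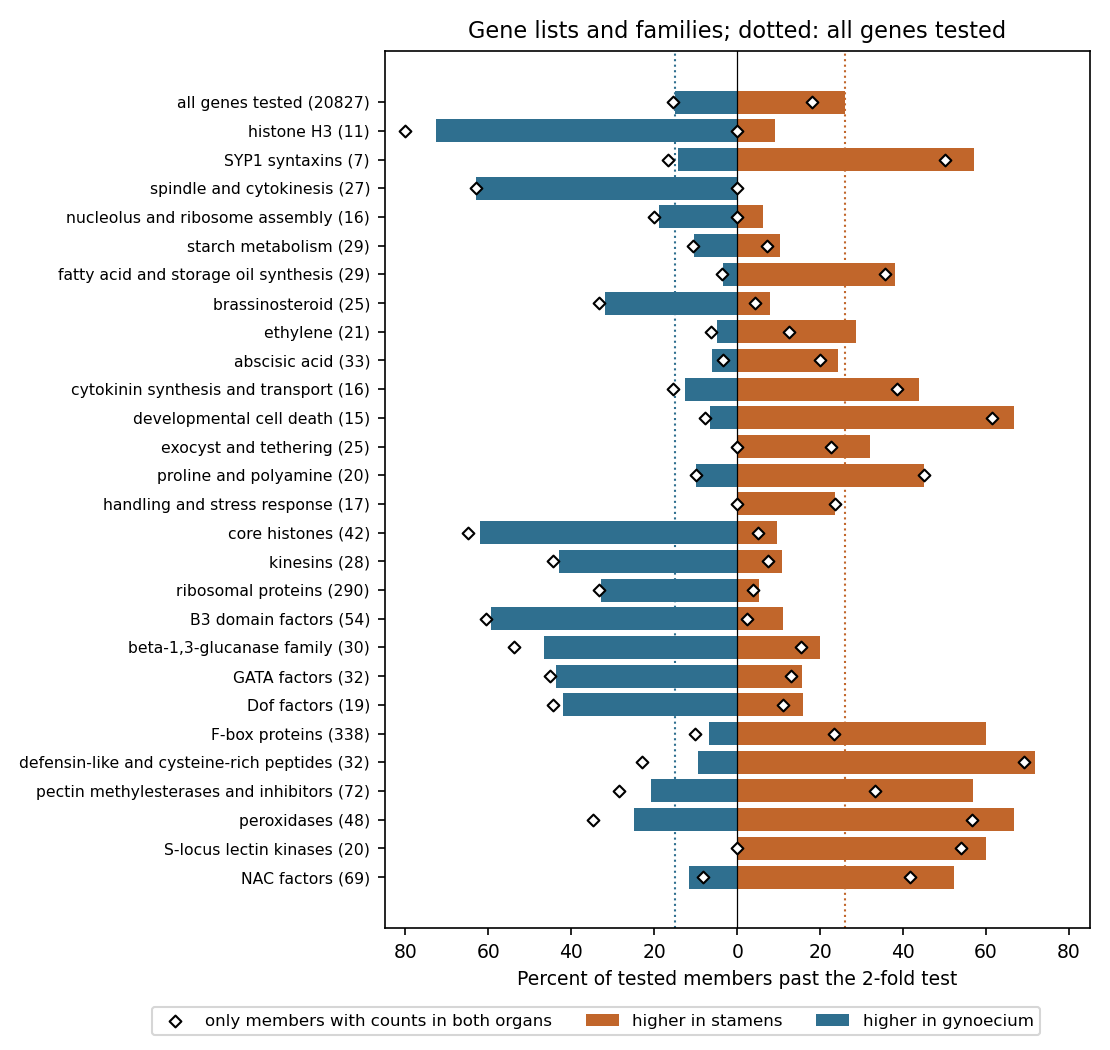
Percent of tested members past the 2-fold test, higher in stamens to the right and higher in gynoecium to the left, with the number tested in parentheses; dotted lines mark all tested genes and diamonds the members with counts in both organs. F-box proteins fall from 60.1% to 23.2% on the stamen side, while core histones and B3 factors stay on the gynoecium side.

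**Figure D5:**
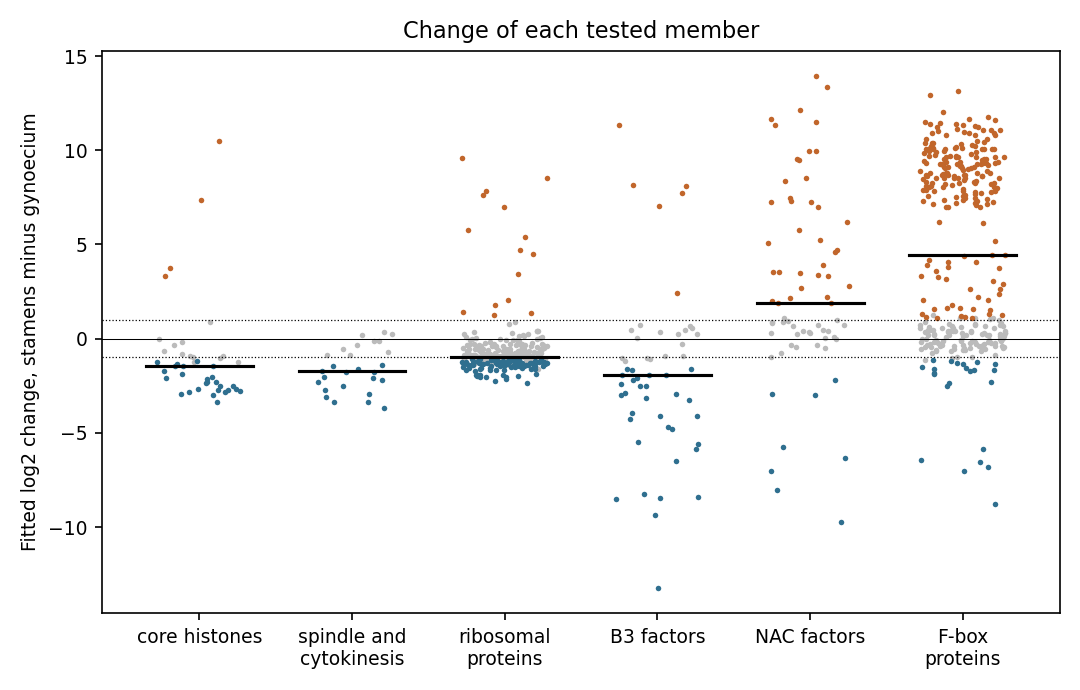
Fitted log2 change (stamens minus gynoecium) of each tested member of 6 groups, coloured orange where higher in stamens and blue where lower by the 2-fold test, with the group median as a bar and dotted lines at a 2-fold change. Most ribosomal proteins lie around their median of -0.98, but their values run from -2.37 to 9.59, with 15 higher by the 2-fold test. The F-box values above 6 are mostly genes with no gynoecium count.

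Of 29 lipid synthesis genes tested, more were higher in stamens than lower, by a margin that depends on the scaling (24 higher and 3 lower by the first test, or 16 and 12 scaled to library totals, 11 and 1 by the 2-fold test, median log2 change 0.79). Upper quartile scaling gave 19 higher and 5 lower by the first test, and the median log2 change was 0.38 with library totals. By the 2-fold test, 37.9% of these genes were higher and 3.45% lower, beside 25.9% and 15.1% of all genes tested. FAD3, which makes linolenic acid in the endoplasmic reticulum, had 259, 249.5 and 245 CPM in stamens and 26.8, 28.9 and 25.9 CPM in gynoecia. GPAT6, a glycerol-phosphate acyltransferase of cutin synthesis, had 125, 129 and 124 CPM in stamens and 10.4, 7.67 and 8.17 CPM in gynoecia. LPAT3, another acyltransferase gene of the list, had 8.34, 8.42 and 7.95 CPM in stamens and no count in any gynoecium library. FAD2, which makes the substrate of FAD3, ran against them at 2.12-fold lower, as did FAD8 (1.90-fold lower) and BCCP2 (1.39-fold lower), a carboxylase subunit, while CAC1, its sister subunit, did not pass (111 ± 3.22 CPM in stamens against 106 ± 1.52 in gynoecia, adjusted p = 0.12). More proline and polyamine genes were higher than lower as well (20 tested, 17 higher and 3 lower by the first test, or 12 and 5 scaled to library totals, 9 and 2 by the 2-fold test, median log2 change 1.06). ADC1, which starts polyamine synthesis from arginine, had 459, 495 and 461 CPM in stamens and 49.4, 45.4 and 43.8 CPM in gynoecia. The oxidases PAO4 (12.7-fold higher) and PAO1 (15.9-fold higher) were higher, whereas BUD2 (3.50-fold lower) and ACL5 (2.94-fold lower) of the later steps were lower, as was P5CR of proline synthesis (1.21-fold lower). P5CS1, the entry enzyme of proline synthesis, was 3.65-fold higher, and the proline transporters PROT1 and PROT2 were 3.77-fold higher and 2.38-fold higher.

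Starch genes were mixed (29 tested, 15 higher and 10 lower by the first test, or 10 and 17 scaled to library totals, 3 and 3 by the 2-fold test, median log2 change 0.17). AMY1, an alpha-amylase, had 18.5, 17.8 and 17.2 CPM in stamens and no count in any gynoecium library, and the plastid sugar-phosphate carrier GPT1 had 279, 288 and 288 CPM in stamens and 100.2, 101 and 103 CPM in gynoecia. BAM1, a beta-amylase, was 2.75-fold higher. The synthase GBSS1 was 3.01-fold lower, the debranching enzyme ISA1 2.27-fold lower and APL1, an ADP-glucose pyrophosphorylase subunit, 4.0-fold lower; 37% of the exon bases of APL1 and 23% of those of ISA1 lie in another gene model. PHS2, the cytosolic phosphorylase, did not pass (86.8 ± 1.45 CPM in stamens against 89.1 ± 2.50 in gynoecia, adjusted p = 0.39). By the 2-fold test, 10.3% of the starch genes were higher and 10.3% lower, beside 25.9% and 15.1% of all genes tested.

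Of the hormone groups, 15 of 25 tested brassinosteroid genes were lower in stamens by the first test (6 higher and 15 lower by the first test, or 5 and 18 scaled to library totals, 2 and 8 by the 2-fold test, median log2 change -0.77). BES1, a transcription factor of the pathway, had 97.0, 103 and 98.1 CPM in stamens and 362, 357 and 346 CPM in gynoecia, although 34% of its exon bases lie in another gene model. Its relative BEH3 was 3.05-fold lower, while BEH1 (1.58-fold higher) and BEH2 (1.75-fold higher) were higher. The receptors BRL1 and BRL3 ran apart: BRL3 had 49.1, 54.8 and 52.5 CPM in stamens and 7.97, 7.94 and 8.65 CPM in gynoecia, and BRL1 had 4.46, 5.48 and 3.51 CPM in stamens and 12.6, 13.8 and 15 CPM in gynoecia. BAK1, the co-receptor, did not pass (48.5 ± 1.62 CPM in stamens against 45.4 ± 1.28 in gynoecia, adjusted p = 0.1). By the 2-fold test, 32.0% of the brassinosteroid genes were lower and 8.0% higher, beside 15.1% and 25.9% of all genes tested.

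Cytokinin genes (16 tested, 7 higher and 5 lower by the first test, or 7 and 7 scaled to library totals, 7 and 2 by the 2-fold test, median log2 change 0.40) were found on both sides. The P450 enzymes CYP735A1 and CYP735A2, which make trans-zeatin forms, had 25.7, 27.9 and 23.6 CPM in stamens and no count in any gynoecium library, and 25.5, 25.6 and 25.0 CPM in stamens and no count in any gynoecium library, respectively. Of the LOG enzymes, which release the active base, LOG5 was 4.75-fold lower and LOG3 3.03-fold lower, and LOG8 was higher (mean 24.6 CPM in stamens and 5.36 in gynoecia). LOG1 (23.3 ± 0.998 CPM in stamens against 24.9 ± 1.74 in gynoecia, adjusted p = 0.25), LOG4 (mean 2.25 CPM in stamens and 3.08 in gynoecia) and LOG7 (mean 0.820 CPM in stamens and 0.467 in gynoecia) did not pass. Of the IPT isopentenyl transferases, IPT1 was higher (mean 22.7 CPM in stamens and 8.12 in gynoecia), IPT2 (mean 6.22 CPM in stamens and 9.39 in gynoecia) and IPT9 (mean 4.78 CPM in stamens and 6.51 in gynoecia) were lower, all by the first test, and IPT3 had no count in either organ. FUR1 (AT4G05120), a nucleoside transporter listed as ENT3, was 4.97-fold higher and PUP14 1.64-fold lower. By the 2-fold test, 43.75% of the cytokinin genes were higher and 12.5% lower, beside 25.9% and 15.1% of all genes tested. Among the 13 with counts in both organs, 5 were higher and 2 lower, beside 18.1% and 15.5% of all such genes. The list's median among those 13 was -0.10. Abscisic acid genes (33 tested, 18 higher and 10 lower by the first test, or 13 and 16 scaled to library totals, 8 and 2 by the 2-fold test, median log2 change 0.26) included NCED3, the rate-limiting cleavage enzyme, with 9.56, 9.43 and 9.31 CPM in stamens and 0.168, 0.227 and 0.346 CPM in gynoecia. CYP707A1, which degrades the hormone, had 75.1, 77.0 and 72.9 CPM in stamens and 7.30, 6.85 and 6.79 CPM in gynoecia, whereas its paralog CYP707A2 had 0.406, 0.648 and 0.370 CPM in stamens and 6.84, 7.72 and 7.13 CPM in gynoecia. AAO3, of the last synthesis step, was 6.62-fold higher. ABI5 (1.52-fold lower) and ABF1 (1.61-fold lower) of the response were lower, and HAB2 did not pass (168 ± 8.63 CPM in stamens against 167 ± 5.09 in gynoecia, adjusted p = 0.99). By the 2-fold test, the share of abscisic acid genes higher in stamens, 24.2%, was near the 25.9% of all genes tested. The share lower was 6.06%, beside 15.1%.

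Ethylene genes (21 tested, 13 higher and 4 lower by the first test, or 10 and 7 scaled to library totals, 6 and 1 by the 2-fold test, median log2 change 0.48) were led by ACS4, a synthase of the ethylene precursor, with 8.4, 7.48 and 7.83 CPM in stamens and no count in any gynoecium library. EFE, the oxidase also listed as ACO4, was 2.70-fold higher and the response factor EIL1 2.33-fold higher. The receptors ETR2 (4.16-fold lower) and EIN4 (1.43-fold lower) and the receptor regulator RTE1 (2.04-fold lower) were lower, and the F-box gene EBF1 did not pass (588 ± 7.19 CPM in stamens against 613 ± 15.6 in gynoecia, adjusted p = 0.083). Of the 6 past the 2-fold test on the stamen side, 4 had no gynoecium count, and their share of the 21, 28.6%, was near the 25.9% of all genes tested. Of the 16 with counts in both organs, 2 passed the 2-fold test on the stamen side (12.5%, beside 18.1% of all such genes). The list's median log2 change was 0.07 with library totals.

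Most genes of developmental cell death were higher in stamens (15 tested, 11 higher and 2 lower by the first test, or 10 and 3 scaled to library totals, 10 and 1 by the 2-fold test, median log2 change 2.05), and 8 of the 13 with counts in both organs passed the 2-fold test. CEP1, a cysteine protease of the tapetum, had 141, 142 and 137 CPM in stamens and 2.47, 1.41 and 2.03 CPM in gynoecia. BFN1, a nuclease of dying cells, had 56.6, 49.2 and 55.2 CPM in stamens and 0, 0 and 0.0432 CPM in gynoecia, and was 3726-fold higher (95% interval 664 to 146384, counting error only). MC9, a metacaspase, had 15.5, 15.4 and 14.3 CPM in stamens and no count in any gynoecium library. RNS3, a ribonuclease, was at least 156-fold higher, and MC1 1.40-fold higher. The seed coat protease DELTA-VPE ran the other way, with 0.116, 0 and 0 CPM in stamens and 13.2, 13.1 and 12.1 CPM in gynoecia, 331-fold lower (95% interval 89.1 to 2669.9, counting error only). LSD1, a cell death regulator, did not pass (36.8 ± 2.42 CPM in stamens against 34.9 ± 1.37 in gynoecia, adjusted p = 0.27).

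Membrane fusion genes differed by member. SYP1 syntaxins, which dock vesicles at the plasma membrane, had 7 tested members (4 higher and 3 lower by the first test, or 4 and 3 scaled to library totals, 4 and 1 by the 2-fold test, median log2 change 2.1). SYP131, a pollen syntaxin, had 42.3, 36.0 and 45.3 CPM in stamens and no count in any gynoecium library, and SYP124 had 6.31, 6.07 and 5.55 CPM in stamens and 0.461, 0.635 and 0.778 CPM in gynoecia. SYP112 (5.20-fold higher) and SYP122 (4.29-fold higher) were higher, SYP121 was 1.65-fold lower and SYP132 1.14-fold lower, less than the shift between scalings. SYP111, the cytokinesis syntaxin KNOLLE, was 12.5-fold lower, though 33% of its exon bases lie in another gene model. Of 25 exocyst genes, whose products tether those vesicles, 19 were higher and 4 lower by the first test and 8 and 0 by the 2-fold test, with a median log2 change of 0.44. Scaled to library totals, 12 were higher and 9 lower by the first test and the median was 0.03. Of the 8, 3 had no gynoecium count, and of the 22 with counts in both organs 5 passed the 2-fold test on the stamen side (22.7%, beside 18.1% of all such genes). EXO70C2 had 106, 107 and 110.4 CPM in stamens and 1.64, 1.86 and 1.90 CPM in gynoecia, EXO70H3 had 47.0, 53.0 and 52.4 CPM in stamens and no count in any gynoecium library, and EXO70H5 was at least 40.6-fold higher. SEC15B (1.08-fold lower), EXO70B1 (1.12-fold lower) and EXO70D1 (1.44-fold lower) were lower, and EXO70A1 did not pass (96.8 ± 3.54 CPM in stamens against 95.2 ± 1.14 in gynoecia, adjusted p = 0.62).

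Genes that respond to handling and stress were measured as a sign of how tissue was taken (17 tested, 8 higher and 7 lower by the first test, or 5 and 9 scaled to library totals, 4 and 0 by the 2-fold test, median log2 change 0.01). HSP70 (AT3G12580) had 270.4, 281 and 268 CPM in stamens and 63.8, 64.6 and 70.2 CPM in gynoecia, and a small heat shock protein gene (AT5G12020) and DREB2A were 4.81-fold higher and 2.49-fold higher. The touch gene TCH4 was 1.81-fold lower, the calcium sensor gene CML38 1.92-fold lower and WRKY40 1.71-fold lower, and SZF1 did not pass (202 ± 8.08 CPM in stamens against 201 ± 4.02 in gynoecia, adjusted p = 0.91). By the 2-fold test, the share of this list higher in stamens, 23.5%, was near the 25.9% of all genes tested, and none were lower, beside 15.1%. The part of these genes in the other results was not tested.

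Stamen-side genes also lay next to each other. Runs of at least 4 neighbouring protein-coding genes all past the 2-fold test numbered 73 on the stamen side, with 327 of 5286 genes placed on the chromosomes, and 12 on the gynoecium side, with 49 of 3061. The longest had 13 genes, from AT1G23540 to AT1G23670 on chromosome 1, mostly OBP32pep or DUF220 genes. AT1G23570 had 505, 461 and 476 CPM in stamens and 0.881, 0.590 and 1.04 CPM in gynoecia, and AT1G23590 had 68.1, 68.3 and 70.2 CPM in stamens and no count in any gynoecium library. Members of the run are similar copies, so the split of their reads is uncertain, and this scan was chosen after values were seen. The number of such runs was not compared with chance.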

How the data were processed

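RNA was sequenced from 3 stamen, 3 gynoecium and 3 leaf libraries. Per the submitters' processing notes, Bowtie2 2.2.3, HISAT2 2.1.0, TopHat2, HTSeq 0.6.0 and the TAIR10 genome were used, with no role or order; strand setting, read filters and annotation release are not given in the sources used here. The authors deposited raw read counts per gene (whole numbers, from the values) and FPKM per gene. In the deposited FPKM, the length implied by counts and FPKM was within 5% of the exon length of the annotation for 99.7% of 14975 genes checked. Counts were used for every test, FPKM only to rank genes by level.

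All 9 libraries were fitted together with edgeR 4.0.16 in R 4.3.3 (filterByExpr, TMM, robust quasi-likelihood, Benjamini-Hochberg over 20827 genes), then tested against a 2-fold change with glmTreat. SE is the log2 change divided by the root of F. On simulated data for 20175 genes, the first test called 49 of 50 genes planted at 2-fold, 50 of 50 at 3-fold and 14 of 19975 unchanged genes. The test against a 2-fold change called 0 of 50 at 2-fold, 46 of 50 at 3-fold, 50 of 50 at 8-fold and 0 unchanged genes. In those data 19975 of 20175 genes were unchanged, while 85.3% of genes were called between the organs. How either test behaves where most genes differ, or under another scaling, was not tested. Same-group libraries had a Spearman correlation of 0.996 to 0.998 and none were identical. Replicate numbers did not pair the samples (correlations of same-numbered deviations -0.026, -0.0085 and 0.0093), so no block was used. Intervals cover counting error only.

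Lists hold 312 of 329 entries whose locus matched its symbol in RefSeq's TAIR10.1 annotation, and 50 families come from words in its descriptions. Members and lists were chosen with earlier results of these data known, and some words were adjusted after the matches were seen. Named genes are the 8 of highest FPKM past the 2-fold test per organ; per list, up to 3 called members of largest change each way with at least 5 CPM in the higher organ and the uncalled member of highest CPM; all H3 and SYP1 members; and the 6 families of at least 10 tested genes with the largest share each way, each with 2 members of highest FPKM. Others were picked after their values were seen: the S19 family, NUC-L1, FIB2, AT5G40040, SKP1, P5CS1, PROT1, PROT2, MC1, CEP1, FOA1, AT1G26515, HTA13, MAD2, the LOG and IPT genes other than LOG1, LOG3 and LOG5, AT2G37600, AT1G23570, AT1G23590, and the genes at 0 in an organ. Promoters were read from TAIR10.1 by its own coordinates. Alternatives were DESeq2 1.42.0, limma-voom 3.58.1, other scalings and filters, a replicate block and leaving out each library; fits without overlapping genes and without genes at 0 in an organ were added after seeing the data.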

Additional observations from a re-analysis of the deposited data

How the results depend on the processing

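The replicate numbers shared by the groups did not pair the samples; with a replicate block, 9587 genes were higher and 8057 lower by the first test and 5369 and 3113 by the 2-fold test. Leaving out any 1 library gave 9550 to 9853 higher and 7836 to 8242 lower by the first test, and 5411 to 5601 and 3005 to 3219 by the 2-fold test. Without genes at 0 in every library of 1 organ, 3261 were higher by the 2-fold test, against 5401. Library totals alone gave 4878 lower by the 2-fold test, against 3140, and moved the higher share of calls by the first test from 54.3% to 39.8%; upper quartile scaling gave 48.6%. With library totals, these log2 changes reversed: MAP65-4 -0.0719, SCC3 -0.1463, KEU -0.2354, CAC1 -0.343, BAK1 -0.3174, HAB2 -0.4096, LSD1 -0.3365, EXO70A1 -0.3874, SKP1 -0.1836 and SZF1 -0.4055. With upper quartile scaling, CAC1 (-0.0827), HAB2 (-0.1492), EXO70A1 (-0.127) and SZF1 (-0.1451) reversed. List medians reversed with library totals for starch (-0.2391), abscisic acid (-0.1463) and handling (-0.4055); handling also without a filter (-0.0167), with upper quartile scaling (-0.1451) and without overlapping genes (-0.0371); and cytokinin without genes at 0 in an organ (-0.0839). The scalings shift every gene by construction; for the rest the cause was not tested. Over all alternatives, of the values for single genes and list medians, 3726 kept direction and side of the threshold, 17 lost the call, 27 gained one, 56 list medians moved by 0.1 or more and 21 reversed. DESeq2, limma-voom, the other filters and the 6 libraries alone kept each count of calls within 1.5 times. Differences smaller than the shift between scalings are limited by the choice of scaling, and genes with few counts by depth.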

Other observations

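These families were picked after their values were seen, and are given by members with counts in both organs and the test against a 2-fold change, beside 18.1% higher and 15.5% lower in stamens among all such genes. Of 44 amino acid transporter genes, 22 were higher and 1 lower, with a median log2 change of 1.05. Of 87 major facilitator transporter genes, 32 were higher and 9 lower. Of 113 leucine-rich repeat receptor kinase genes, 18 were higher and 49 lower, with a median of -0.84. Of 152 homeobox factor genes, 24 were higher and 57 lower. The 41 proteasome subunit genes tested had log2 changes from -1.16 to 1.24, with a median of -0.17.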
